A study of Mus musculus with 12 samples.

Results

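The genes described here are 47 genes of DNA replication and nucleotide synthesis, listed by symbol and looked up in the tables of read counts from total colon. All 47 were found, among 30263 genes, and all 47 passed the filter on low counts, which left 17195 genes tested. They are the genes that license origins, open and copy DNA at the fork, supply deoxynucleotides, repack and remethylate the copied strand, and switch on the program (cyclin E and E2F). RNA sequencing was done on total colons of C57BL/6 mice labelled S1PR4 KO and of C57BL/6 mice labelled WT, 3 libraries each. S1PR4 binds the lipid sphingosine 1-phosphate and is made chiefly by immune cells. Every mouse of both groups had received azoxymethane (AOM), a carcinogen, by injection at 10 mg/kg on day 0. All also drank dextran sulfate sodium (DSS), a polymer that damages the lining of the gut, at 0.5% of the water on days 1 to 6, 21 to 27 and 47 to 52. Colons were taken at day 84, so there was no untreated colon among the groups, and age and sex were not given in the labels. The labels speak of triplicates without saying that each was a separate animal, so p-values measure the spread between these samples only. CD8+ T cells sorted from PyMT mammary tumors were also sequenced, but the tables used here list 357 genes for those libraries and 0 of the 47.

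DNA replication starts from origins that are marked by the origin recognition complex (ORC) and loaded in G1 with the ring-shaped helicase MCM2-7 by CDC6 and CDT1. At the start of S phase, CDC45 and the GINS complex join the ring and activate it, DNA polymerases copy the opened strands, and ribonucleotide reductase and thymidylate synthase provide the building blocks. E2F transcription factors, released when cyclin-dependent kinases inactivate the retinoblastoma protein, switch most of these genes on together. In the colon, dividing cells sit mainly in the lower crypt and in tumors, with others among immune and stromal cells. In RNA from a whole colon, fewer dividing cells and less RNA per dividing cell cannot be told apart.

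The libraries held 7304082 to 8652561 counts each. S1pr4 itself had 154, 162 and 118 counts in the libraries labelled KO, against 61, 47 and 25 in those labelled WT, a log2 difference of 1.78 ± 0.34 (SE, adjusted p = 0.829 in edgeR and 0.00578 in DESeq2). The targeted gene (chromosome 10, 81497747 to 81500132) was thus more abundant in the libraries labelled KO, against their label, and a count per gene does not tell which part of it was read. KO and WT stand for labelled KO and labelled WT throughout, and every direction below rests on those labels. The libraries also divided by Xist, an RNA made in female cells. Xist stood at 517 to 606 CPM (counts scaled to a common library size, here by the total count alone) in the libraries labelled KO replicates 2 and 3 and labelled WT replicate 1, called Xist-high below. It was at 0.884 to 6.64 CPM in the libraries labelled KO replicate 1 and WT replicates 2 and 3, where Ddx3y, a gene of the Y chromosome, stood at 63.1 to 80.2 CPM, and which are called Y-linked below. Each set thus rests on a single library of one label.

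Promoters of many replication genes carry the E2F site, and RefSeq promoter windows (GRCm38.p6, 250 bases before to 50 after a start) were found for 38 of the 47 genes, 46 windows in all. One of 4 spellings of the E2F site (TTTCCCGC, TTTCGCGC, TTTGCCGC or TTTGGCGC, either strand) occurred in 16 of these 46 windows (34.8%), each in a different gene, and in 744 of the 32851 windows of all genes (2.26%). The CCAAT box (CCAAT, either strand) was in 58.7% of the members' windows and 37.4% of all windows. The cell cycle homology region (TTTGAA, either strand) was in 13.0% of the members' windows and 17.9% of all. The median G and C content was 59.2% in the members' windows and 52.7% in all windows, and base composition was not matched. The 160 bases before the start are printed for 4 members, 3 because the E2F spelling lies there and the first of the 2 E2f2 windows because E2f2 had the smallest p of the list. Capitals mark the E2F spellings, which overlap in Mcm5 and at one place in Mcm6. Upstream of E2f2 no spelling occurred in these 160 bases, and one lay at base 40 after the RefSeq start. That base lies before the gene start given for E2f2 below, which comes from another annotation.
Mcm6, minus strand, chr1:128359706-128359865: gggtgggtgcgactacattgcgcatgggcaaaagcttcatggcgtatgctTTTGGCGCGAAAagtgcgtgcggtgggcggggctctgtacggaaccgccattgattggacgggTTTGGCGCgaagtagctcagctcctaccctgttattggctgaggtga
Mcm5, plus strand, chr8:75109349-75109508: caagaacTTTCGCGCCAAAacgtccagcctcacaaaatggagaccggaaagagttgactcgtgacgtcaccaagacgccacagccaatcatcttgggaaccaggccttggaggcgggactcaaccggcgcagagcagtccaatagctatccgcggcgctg
Pola1, minus strand, chrX:93632156-93632315: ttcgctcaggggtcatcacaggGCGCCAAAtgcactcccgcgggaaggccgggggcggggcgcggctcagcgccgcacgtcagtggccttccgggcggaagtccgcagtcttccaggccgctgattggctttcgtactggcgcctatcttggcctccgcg
E2f2, plus strand, chr4:136172114-136172273: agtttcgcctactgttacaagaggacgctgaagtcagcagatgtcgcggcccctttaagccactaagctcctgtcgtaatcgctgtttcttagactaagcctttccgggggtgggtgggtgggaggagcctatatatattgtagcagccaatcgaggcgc

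Of the 47 replication genes, 46 had a higher mean in colons labelled KO than in colons labelled WT, and the exception, Gins4, stood at a log2 difference of -0.01. The median log2 difference was 0.25, a fold of 1.19, with members between -0.01 and 0.64. Over all tested genes 49.0% had a difference above 0, and the median was -0.0045. With p-values adjusted over all tested genes (edgeR, Benjamini-Hochberg), no member passed the threshold of 0.05 (adjusted p of 0.829 to 0.987), and neither did any other gene (0% of 17195). At an unadjusted p under 0.05 there were 5 members (E2f2, Pole, Pola1, Prim2 and Rrm2), all higher in labelled KO, where 2.62% of all tested genes were higher at that level. DESeq2 and limma-voom also called 0 of the 47, with lowest adjusted p-values of 0.266 and 0.0951. DESeq2 called 18 other genes after adjustment. At an unadjusted p under 0.05 DESeq2 had 7 members, all higher in labelled KO, where 3.08% of all genes were higher at that level. Limma-voom had 31 members at that level, all higher, where 11.9% of all genes were higher.

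**Figure D1:**
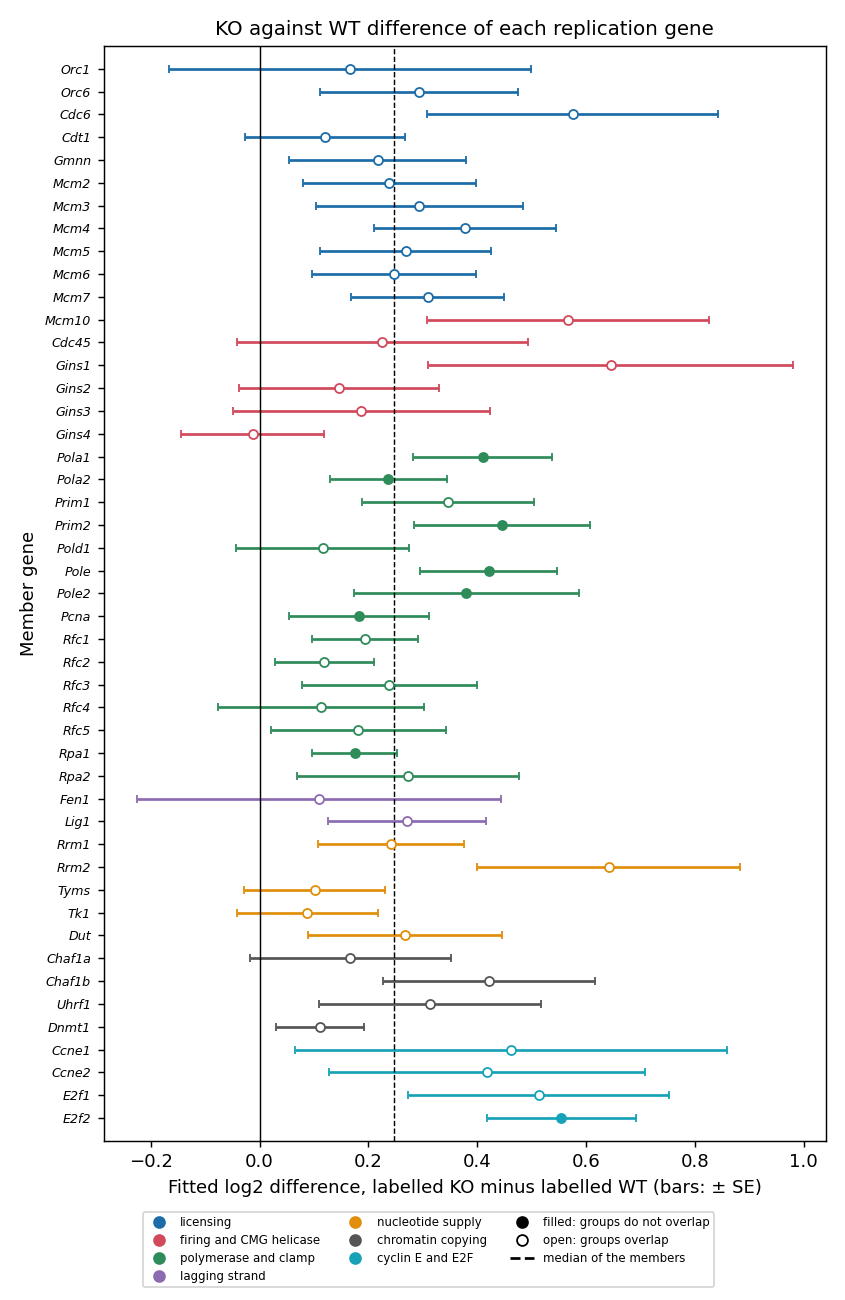
Fitted log2 difference between colons labelled KO and colons labelled WT for each of the 47 replication genes, with bars of ± SE, coloured by role; filled points are the 8 members whose 3 KO libraries all lay above the 3 WT libraries. All points but Gins4 lie right of 0, and the dashed line is the median of 0.25.

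The 3 libraries labelled KO did not stand together. Relative to the mean of the 6 libraries, the median log2 level of the 47 genes was -0.11, 0.27 and 0.25 in KO replicates 1, 2 and 3 and -0.34, -0.06 and -0.0021 in WT replicates 1, 2 and 3. KO replicates 2 and 3 were thus the high libraries, WT replicate 1 was the low one, and KO replicate 1 lay among the WT libraries. KO replicate 2 was the highest library for 31 members and KO replicate 3 for 14, while WT replicate 1 was the lowest for 37. The libraries labelled KO all lay above those labelled WT for 8 members (Pola1, Pola2, Prim2, Pole, Pole2, Pcna, Rpa1 and E2f2), against 4.55% of all tested genes. Without KO replicate 1 the groups were apart in this way for 37 members, against 20.3% of all genes, and the median difference was 0.37.

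**Figure D2:**
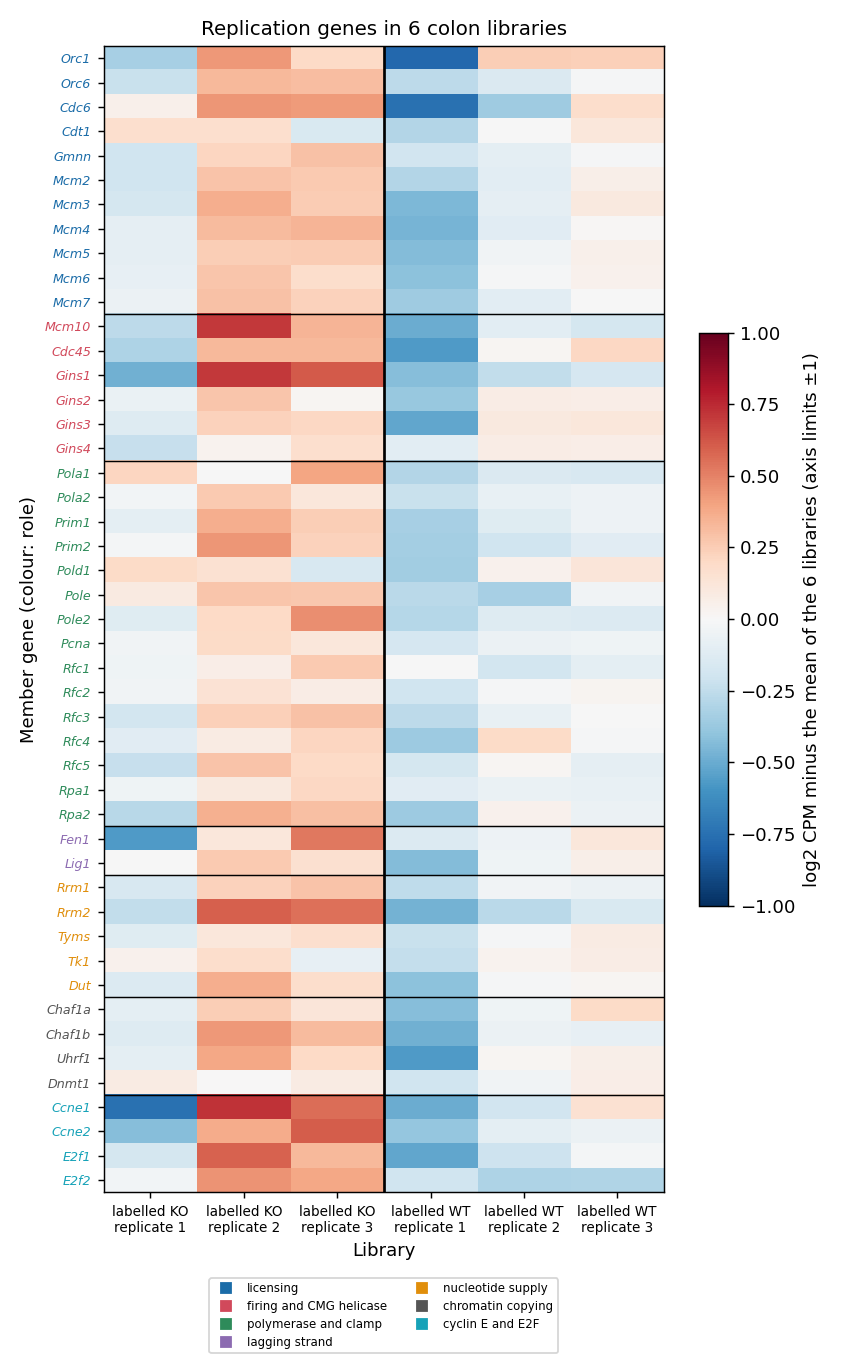
Level of each of the 47 genes (rows, grouped by role) in each colon library (columns, libraries labelled KO on the left), as log2 CPM minus the mean of the 6 libraries. Most rows are red in KO replicates 2 and 3 and blue in WT replicate 1, while KO replicate 1 is pale or blue for most genes.

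High levels in KO replicates 2 and 3 and the low level in WT replicate 1 fell in the same set, the Xist-high libraries. Within that set all 47 members were higher in labelled KO, with a median log2 difference of 0.61. Within the Y-linked set, where KO replicate 1 is the only KO library, 13 of 47 were higher in labelled KO and the median was -0.09. Over all tested genes these medians were 0.0056 and -0.0039. The interaction term of the edgeR fit, which is the difference in the Xist-high set minus that in the Y-linked set, was positive for all 47 members, with a median of 0.67. For no member did it pass after adjustment over all genes (lowest adjusted p = 0.168 in edgeR). An unadjusted p under 0.05 was reached by 28 members, where 6.47% of all tested genes had a positive term at that level. This fit has 2 residual degrees of freedom and rests on KO replicate 1 alone for labelled KO in the Y-linked set and on WT replicate 1 alone for labelled WT in the Xist-high set.

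**Figure D3:**
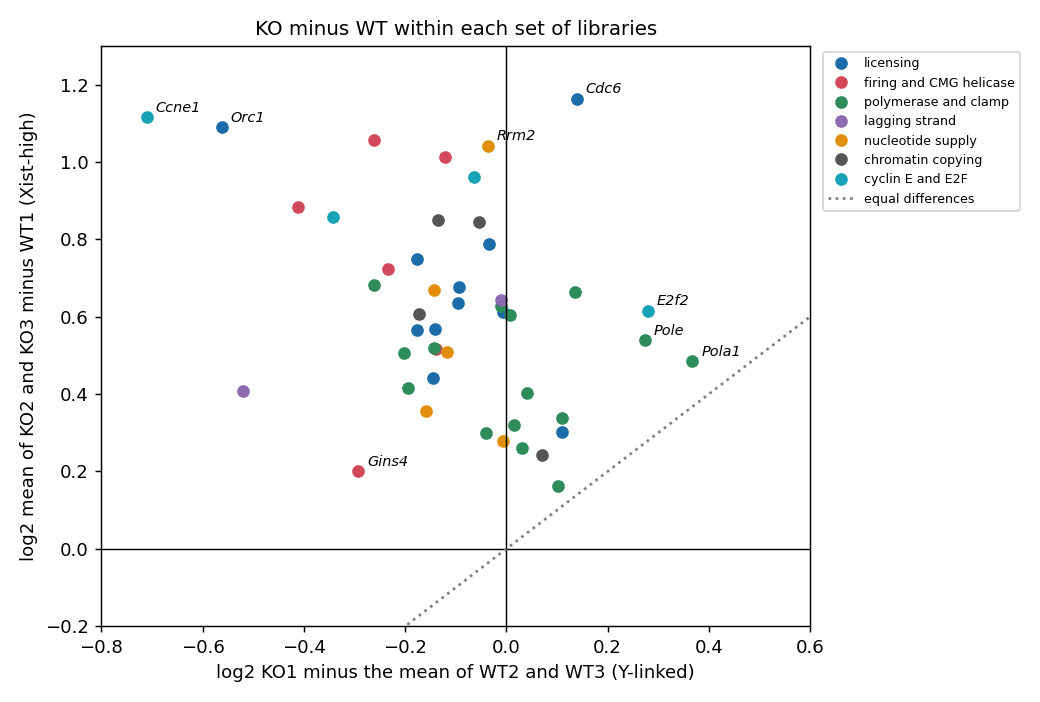
KO minus WT log2 difference of each member among Y-linked libraries (horizontal) and among Xist-high libraries (vertical), coloured by role. All 47 points lie above 0 on the vertical axis and above the dotted line of equal differences, and 13 lie right of 0 on the horizontal axis.

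Among the 11 licensing genes, all had a higher mean in labelled KO, with a median log2 difference of 0.27, and none reached an unadjusted p under 0.05. Mcm4, a subunit of the MCM ring (GRCm38 chromosome 16, 15623897 to 15637400), was at 71.6, 94.5 and 96.3 CPM in labelled KO and at 55.1, 70.1 and 76.8 CPM in labelled WT. Its groups overlapped because KO replicate 1 lay below WT replicate 3, and the log2 difference was 0.38 ± 0.17 (SE). Mcm7, another subunit of the ring, was at 47.4, 60.6 and 58.2 CPM in labelled KO and at 38.7, 46.0 and 49.5 CPM in labelled WT, a log2 difference of 0.31 ± 0.14 (SE). The 6 ring subunits have to be present in equal amounts in the complex, and their differences ran from 0.24 for Mcm2 to 0.38 for Mcm4. Cdc6, which loads the ring, was at 19.1, 25.0 and 24.7 CPM in labelled KO and at 10.9, 14.4 and 20.8 CPM in labelled WT, with a log2 difference of 0.58 ± 0.27 (SE). For Cdc6, WT replicate 3 alone reached the level of KO replicate 1. Cdt1, the partner of CDC6 in loading, and Gmnn, which encodes the CDT1 inhibitor geminin, differed by 0.12 ± 0.15 and 0.22 ± 0.16 (SE, log2). Orc1, the largest ORC subunit, was at 19.7, 33.5 and 28.5 CPM in labelled KO and at 14.4, 29.3 and 29.2 CPM in labelled WT. That spread was wide in both groups, and Orc1 differed by 0.17 ± 0.33 (SE, log2), while Orc6 differed by 0.29 ± 0.18.

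Origin firing and helicase activation genes held the widest range, with 5 of 6 higher in labelled KO and a median log2 difference of 0.21. Gins1, a subunit of the GINS complex, was at 7.25, 16.5 and 15.5 CPM in labelled KO and at 7.53, 8.53 and 8.98 CPM in labelled WT, and had the largest difference of the list, 0.64 ± 0.33 (SE, log2). That value came from KO replicates 2 and 3, since KO replicate 1 had less Gins1 than any WT library. Mcm10, which acts on the helicase after loading, was at 30.1, 59.2 and 45.9 CPM in labelled KO and at 25.7, 33.6 and 32.0 CPM in labelled WT, a log2 difference of 0.57 ± 0.26 (SE). Cdc45, which completes the active helicase with GINS and the MCM ring, was at 20.5, 31.8 and 31.8 CPM in labelled KO and at 17.1, 25.6 and 29.2 CPM in labelled WT, with a log2 difference of 0.23 ± 0.27 (SE). Gins4 belongs to the same complex as Gins1 and was at 34.3, 41.1 and 45.2 CPM in labelled KO and at 37.4, 42.3 and 42.0 CPM in labelled WT. Its groups were interleaved, and its log2 difference of -0.01 ± 0.13 (SE) was 0.02 with total counts as the only scaling. Per kilobase of exon Gins4 had the highest level of the 47, 29.8 CPM per kilobase in KO and 30.1 in WT, whereas Gins1 was at 8.62 in KO and 5.50 in WT. Gins2 and Gins3 differed by 0.15 ± 0.18 and 0.19 ± 0.24 (SE, log2), but 67.3% of the exon bases of Gins2 overlap Gse1 on the other strand, and strand-specific counting was not stated.

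The polymerases, primase, clamp, clamp loader and single-strand binding proteins were the group in which KO and WT libraries were most often apart. All 15 had a higher mean in labelled KO, with a median log2 difference of 0.24, and in 7 of 15 the groups did not overlap, against 4.55% of all tested genes. Pole, the catalytic subunit of the leading-strand polymerase epsilon (chromosome 5, 110286306 to 110337474), was at 36.3, 41.1 and 41.0 CPM in labelled KO and at 28.1, 27.1 and 33.2 CPM in labelled WT. Every KO library lay above every WT library, and the log2 difference was 0.42 ± 0.13 (SE, edgeR unadjusted p = 0.0143, adjusted p = 0.829). Pola1, the catalytic subunit of polymerase alpha, which extends the first primers (chromosome X, 93304767 to 93632155), was at 48.1, 41.4 and 54.4 CPM in labelled KO and at 33.8, 37.5 and 37.0 CPM in labelled WT. Here too the groups were apart, with a log2 difference of 0.41 ± 0.13 (SE, edgeR unadjusted p = 0.0173, adjusted p = 0.829). Prim2, the large primase subunit, was at 23.4, 32.3 and 28.0 CPM in labelled KO and at 18.8, 20.7 and 21.9 CPM in labelled WT, a log2 difference of 0.44 ± 0.16 (SE, edgeR unadjusted p = 0.0316, adjusted p = 0.829). All 3 of these genes had groups that were apart, so their difference within either set of libraries had to be above 0. The differences were 0.54, 0.49 and 0.66 in the Xist-high set and 0.27, 0.37 and 0.14 in the Y-linked set (log2, in the order Pole, Pola1, Prim2). Rpa1, the large subunit of the single-strand binding protein, was at 102, 112 and 121 CPM in labelled KO and at 96.8, 99.8 and 99.2 CPM in labelled WT. It varied least within groups of all members (pooled SD of 0.09, log2), and its difference was 0.17 ± 0.08 (SE, log2). The 5 subunits of the clamp loader, Rfc1 to Rfc5, differed by 0.11 to 0.24.

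Pcna, the sliding clamp, was at 22.5, 26.4 and 25.0 CPM in labelled KO and at 20.5, 22.1 and 22.4 CPM in labelled WT. The groups were apart, though the log2 difference was only 0.18 ± 0.13 (SE). The level of Pcna is uncertain, because the pseudogene Pcna-ps2 shares 99.2% identity over 781 bases and held 112 to 135 counts per library beside the 166 or more of Pcna. With the counts of both summed, Pcna differed by 0.18 ± 0.11 (SE, log2), and the groups overlapped, at 37.3, 42.7 and 43.4 CPM in labelled KO and 33.8, 37.6 and 37.5 CPM in labelled WT. Copies of at least 95% identity with counts were also found for Uhrf1, Cdc6, Rrm2 and Rfc5, and with the copies summed these differed by 0.33, 0.57, 0.63 and 0.16, against 0.31, 0.58, 0.64 and 0.18 alone. The sum was added after the data were seen.

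On the lagging strand, Lig1, the ligase that joins Okazaki fragments, was at 83.1, 100 and 93.4 CPM in labelled KO and at 61.7, 80.8 and 86.8 CPM in labelled WT, with a log2 difference of 0.27 ± 0.15 (SE). Only KO replicate 1 fell inside the range of the WT libraries. Fen1, the nuclease that trims the fragments, had 11 to 22 counts per library and the lowest level per kilobase of the 47, 0.912 CPM per kilobase in KO and 0.843 in WT. Its exons overlap the antisense gene Gm10143 over 78.8% of their bases, and the part of that overlap in the low count was not tested. The Fen1 difference of 0.11 ± 0.34 (SE, log2) lay within the spread between replicates, and it was -0.04 with Xist status as a covariate.

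Nucleotide supply genes all had a higher mean in labelled KO (5 of 5), with a median log2 difference of 0.24. Rrm2, the small subunit of ribonucleotide reductase, which limits the enzyme in S phase (chromosome 12, 24708241 to 24714146), was at 33.2, 59.6 and 57.9 CPM in labelled KO and at 28.4, 32.7 and 35.5 CPM in labelled WT. KO replicates 2 and 3 stood well above all WT libraries, while KO replicate 1 lay among them, and the log2 difference was 0.64 ± 0.24 (SE, edgeR unadjusted p = 0.0366, adjusted p = 0.829). Rrm1, the large subunit, was at 105, 138 and 143 CPM in labelled KO and at 98.6, 115 and 113 CPM in labelled WT, a log2 difference of 0.24 ± 0.13 (SE). Rrm2 differed by 1.04 among Xist-high libraries and by -0.04 among Y-linked libraries, and Rrm1 by 0.51 and -0.12 (log2). Dut, the dUTPase that keeps uracil out of DNA, differed by 0.27 ± 0.18 (SE, log2). Tyms, thymidylate synthase, and Tk1, which salvages thymidine, differed by 0.10 ± 0.13 and 0.09 ± 0.13 (SE, log2), within their spread between replicates.

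Chromatin copying genes were higher in labelled KO in 4 of 4 cases by mean, and every one of them had overlapping groups. Chaf1b, a subunit of the histone chaperone CAF-1, was at 29.6, 43.6 and 40.3 CPM in labelled KO and at 23.2, 31.1 and 30.5 CPM in labelled WT, with a log2 difference of 0.42 ± 0.20 (SE). Uhrf1, which recognises hemimethylated DNA behind the fork, was at 53.0, 74.1 and 65.3 CPM in labelled KO and at 38.4, 57.4 and 59.1 CPM in labelled WT, with a log2 difference of 0.31 ± 0.20 (SE). In both genes KO replicate 1 lay below WT replicates 2 and 3. Dnmt1, the maintenance methyltransferase that UHRF1 recruits, differed by only 0.11 ± 0.08 (SE, log2), and Chaf1a by 0.17 ± 0.19, with 52.5% of the exon bases of Chaf1a overlapping Ubxn6 on the other strand.

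Cyclin E and E2F genes had the highest median of the 7 role groups, 0.49 (log2), with all 4 higher in labelled KO. E2f2, an activating E2F (ENSMUSG00000018983, chromosome 4, 136172394 to 136196057), had the smallest p of the list. It was at 64.4, 89.5 and 85.6 CPM in labelled KO and at 57.0, 52.8 and 53.2 CPM in labelled WT, which averaged 79.8 ± 13.5 CPM in labelled KO and 54.3 ± 2.29 CPM in labelled WT (SD, n = 3 each). Every KO library was above every WT library. The log2 difference was 0.55 ± 0.14 (SE, edgeR unadjusted p = 0.00625, adjusted p = 0.829), with 0.62 among Xist-high and 0.28 among Y-linked libraries. E2f1 was at 20.1, 34.3 and 28.5 CPM in labelled KO and at 15.9, 19.7 and 22.4 CPM in labelled WT, a log2 difference of 0.51 ± 0.24 (SE), with KO replicate 1 inside the WT range. Ccne1, a cyclin that drives entry into S phase, was at 12.1, 33.3 and 29.7 CPM in labelled KO and at 14.4, 17.7 and 22.4 CPM in labelled WT. It varied most within groups of all members (pooled SD of 0.60, log2), because KO replicate 1 held less than any other library. The Ccne1 difference of 0.46 ± 0.40 (SE, log2) split into 1.12 among Xist-high and -0.71 among Y-linked libraries. Ccne2 differed by 0.42 ± 0.29 (SE, log2).

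**Figure D4:**
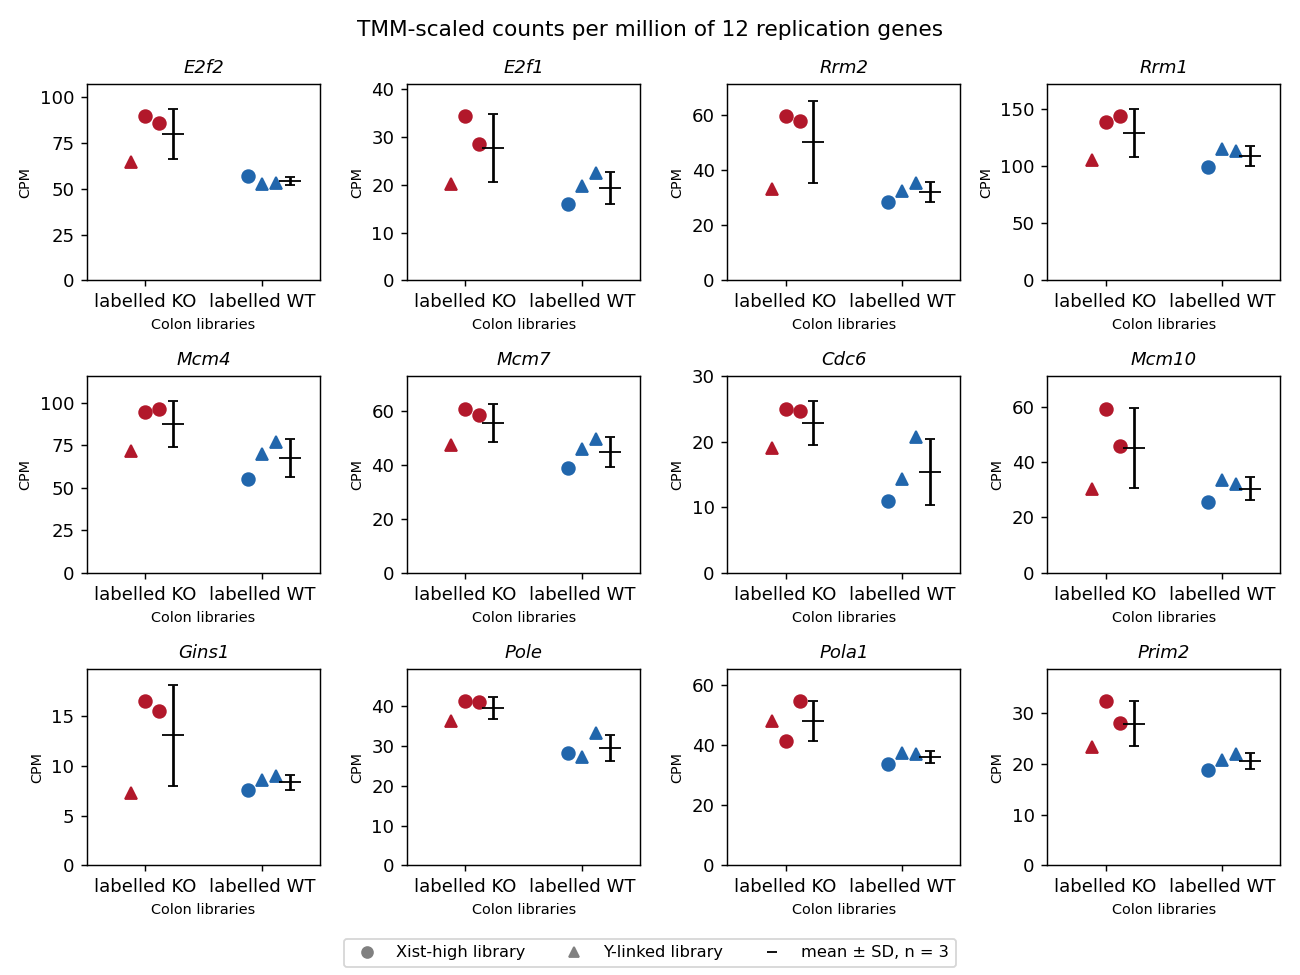
TMM-scaled CPM of 12 replication genes in each colon library, with libraries labelled KO left of those labelled WT, circles for Xist-high and triangles for Y-linked libraries, and the mean ± SD (n = 3) beside each group. The KO triangle lies close to the WT points for most genes, and E2f2, Pole, Pola1 and Prim2 are the 4 panels in which the groups are apart.

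Members with and without an E2F spelling in the promoter window had like differences. The median log2 difference was 0.27 for the 16 members with a spelling and 0.24 for the 22 without. Over all tested genes with a window, the median was 0.03 for the 504 with a spelling and -0.01 for the 11334 without, and 54.8% of the genes with a spelling were higher in labelled KO, against 47.7% of those without. These are descriptions of letters in a window and not of binding.

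Replication genes outside the list had like values, with 30 of 32 higher in labelled KO and a median log2 difference of 0.21. Of these, 6 were at an unadjusted p under 0.05, all higher in labelled KO, where 2.62% of all tested genes were higher at that level. None of them passed adjustment (edgeR). The KO libraries all lay above the WT libraries for 6 of the 32 and all below for 1, where 4.55% of all tested genes lay above in this way. Atad5, which unloads the clamp after synthesis, was at 31.5, 31.9 and 31.6 CPM in labelled KO and at 20.9, 21.2 and 23.6 CPM in labelled WT, a log2 difference of 0.53 ± 0.11 (SE, edgeR adjusted p = 0.829). Its KO libraries stood together, KO replicate 1 included. Wdhd1, which ties polymerase alpha to the helicase, differed by 0.41 ± 0.12 (SE, log2). Mitosis genes were higher in labelled KO in 20 of 20 cases, with a median of 0.25 (0.49 among Xist-high and 0.04 among Y-linked libraries). In edgeR 0 of 20 passed adjustment, and 7 were at an unadjusted p under 0.05, against the same 2.62% of all tested genes. In 5 of the 20 the KO libraries all lay above the WT libraries, against 4.55%. Top2a and Cenpe, a topoisomerase and a kinetochore motor, differed by 0.36 ± 0.11 and 0.46 ± 0.10 (SE, log2). Nucleotide synthesis genes outside the list, mostly enzymes of purine, pyrimidine and folate metabolism, were higher in 20 of 26 cases with a median of 0.08. Their 2 genes with the smallest p were the mitochondrial folate enzymes Shmt2 and Mthfd2, at 0.23 ± 0.10 and 0.53 ± 0.30 (SE, log2). Other G1/S regulators were higher in 21 of 29 cases with a median of 0.15, among them the retinoblastoma relative Rbl1 at 0.18 ± 0.08 and the kinase inhibitor Cdkn1c at 1.19 ± 0.47 (SE, log2).

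**Figure D5:**
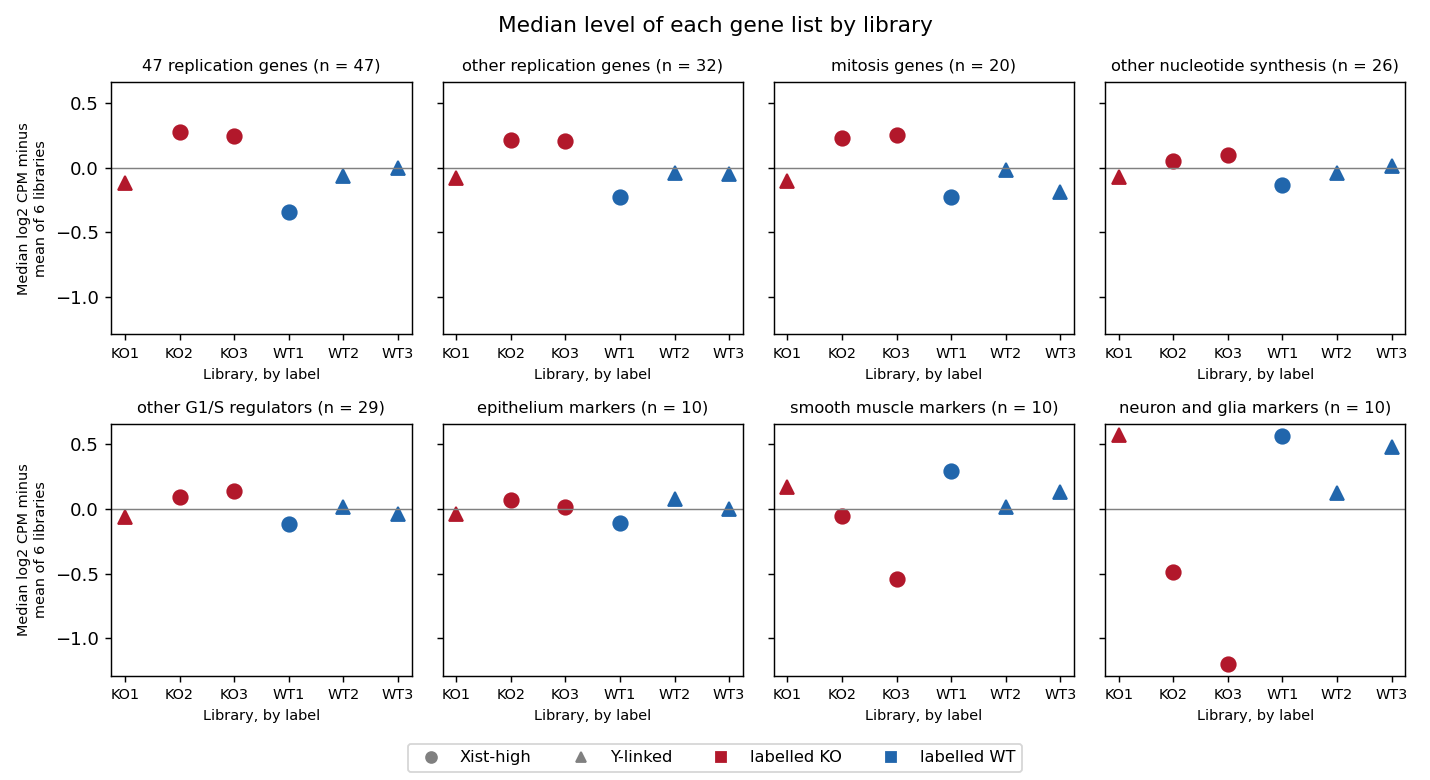
Median log2 CPM of each gene list in each colon library relative to the mean of the 6 libraries, with libraries labelled KO left of those labelled WT. Replication and mitosis genes are high in KO replicates 2 and 3 and low in WT replicate 1, epithelium markers vary little, and smooth muscle and neuron markers are low in KO replicate 3.

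Markers of other parts of the colon also differed between these libraries. Smooth muscle markers were higher in labelled KO in 0 of 10 cases, with summed levels of 1236 to 2325 CPM in labelled KO and 1964 to 2613 CPM in labelled WT. Enteric neuron and glia markers were higher in 1 of 10 cases, with sums of 130 to 295 CPM in labelled KO and 217 to 290 CPM in labelled WT. Both lists were lowest in KO replicate 3. Epithelium markers, which define the tissue that holds the crypts, were higher in 8 of 10 cases, with sums of 1882 to 2024 CPM in labelled KO and 1710 to 2053 CPM in labelled WT, lowest in WT replicate 1. Crypt stem cell markers were higher in 9 of 10, at 1012 to 1790 CPM in labelled KO and 1029 to 1174 CPM in labelled WT. The stem cell receptor gene Lgr5 was at 26.6, 72.3 and 101 CPM in labelled KO and at 34.7, 16.0 and 11.7 CPM in labelled WT, so KO replicates 2 and 3 were again the high libraries. The low end differed from that of the replication genes. For the stem cell markers the sum was lowest in KO replicate 1 (1012 CPM), and WT replicate 1 had the highest sum of the WT libraries (1174 CPM). Markers of squamous epithelium and skeletal muscle were higher in 0 of the 5 tested. All 10 genes of that list, tested or not, summed to 42.1 to 73.3 CPM in labelled KO and 62.2 to 535 CPM in labelled WT. The 535 CPM stood in labelled WT replicate 1, the library lowest for replication genes. The sums of the other marker lists also cover all 10 genes of a list, tested or not. Neutrophil markers were higher in 7 of 8 tested, with sums of 85.1, 241 and 225 CPM in labelled KO and 162, 91.4 and 71.6 CPM in labelled WT (replicates 1 to 3). T cell markers were higher in 7 of 9 tested, at 145, 85.9 and 87.7 CPM in labelled KO and 100, 74.9 and 64.3 CPM in labelled WT. KO replicate 1 was the highest library for 7 of these 9. B cell and germinal centre markers were higher in 1 of 9 tested, at 367, 181 and 104 CPM in labelled KO and 343, 304 and 88.0 CPM in labelled WT. Within the Xist-high set 1 of 9 T cell markers and 1 of 9 B cell markers were higher in labelled KO. Within the Y-linked set 9 of 9 of each of these lists were higher. Epithelium markers were higher in 10 of 10 cases in the Xist-high set and 0 of 10 in the Y-linked set (medians of 0.15 and -0.07, log2). In the same order, smooth muscle markers were higher in 0 and 10 of 10, and neuron and glia markers in 1 and 9 of 10. Stem cell markers were higher in 8 and 4 of 10, neutrophil markers in 7 and 6 of 8, and squamous and skeletal muscle markers in 0 and 2 of 5. No marker was at 0 in all 6 libraries, and 0 markers passed edgeR's test after adjustment. In DESeq2 the skeletal muscle actin gene Acta1 did pass, at 12.2, 17.8 and 11.1 CPM in labelled KO and 38.7, 33.7 and 42.3 CPM in labelled WT (log2 difference of -1.48, DESeq2 adjusted p = 1.71e-05, edgeR adjusted p = 0.829). The part of tissue makeup in the values of the replication genes was not tested.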

How the data were processed

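The deposited colon tables give a whole-number read count for each Ensembl gene, not normalised, per the file headers. STAR, TopHat2, RSEM, HTSeq and DESeq2 and the builds mm10 and GRCm38 are named in the submitters' processing notes, without versions or roles. Strand-specific counting and duplicate removal are not given in the sources used here. After filterByExpr and TMM scaling, edgeR 4.0.16 in R 4.3.3 was used for the test (quasi-likelihood, robust), with Benjamini-Hochberg adjustment over all 17195 tested colon genes and a threshold of 0.05. Group levels are TMM-scaled CPM. The edgeR test gives no SE, so each SE of an edgeR difference is the absolute log2 difference divided by the square root of its F statistic. DESeq2 1.42.0 and limma 3.58.1 were run as alternatives, as were other scalings and filters, a replicate block, Xist status as a covariate and leaving out each library. Libraries above 100 CPM of Xist were called Xist-high. List levels by library and within sets are log2 CPM with a prior count of 2. Exon lengths, overlaps and copies came from GENCODE vM21 (GRCm38), and the copy search kept alignments of at least 400 bases. The edgeR test was checked on simulated data, where it called 45% of the 2-fold changes and 77.6% of the 4-fold changes. Changes as small as the members' median fold of 1.19 were not simulated. The simulated counts were drawn for each gene on its own, without differences shared across the genes of a library. These shares may therefore not apply to the colon libraries. Chi-square per degree of freedom between replicates was 5.19 or more, so each library was counted once. Intervals and SEs cover these samples only, and reads carry no molecular identifiers.

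The members and lists were chosen with earlier results of these data known. Named members are the 3 with the smallest p in each of the first 3 role groups and the 2 with the smallest p in each of the other 4. Any member below 0, and the extremes of level per kilobase and of within-group SD, are added, and from each other list the 2 genes with the smallest p. Members named outside this rule were chosen after their values were seen. From the marker lists only Lgr5 and Acta1 are printed. A replicate number given in the titles was not used to pair the libraries in the reported fit.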

Additional observations from a re-analysis of the deposited data

How the results depend on the processing

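No member passed the adjusted threshold under any of the 15 other settings that were run, where the lowest adjusted p was 0.0829, reached without KO replicate 1. The median log2 difference of the 47 genes stayed above 0 throughout, between 0.17 and 0.37, and 43 to 47 members were higher in labelled KO. The number of members at an unadjusted p under 0.05 was less stable. Against 5 in the reported fit it was 3 with Xist status as a covariate, 31 with limma-voom and 21 with a replicate block, where 1.45%, 11.9% and 2.52% of all genes were higher in labelled KO at that level. Leaving out one library at a time gave 2 to 26, where 26 belongs to the omission of KO replicate 1, 3 to that of KO replicate 2, and 2 to that of KO replicate 3, WT replicate 1 or WT replicate 2. The omission of KO replicate 1 also brought 8.90% of all genes to that level in the same direction, against 2.62% in the reported fit. Members whose groups did not overlap numbered 8 to 37 under the same omissions. There were 37 when KO replicate 1 was omitted and 16 when WT replicate 3 was, where 20.3% and 7.30% of all genes were apart in that direction. They numbered 9, 10, 9 and 8 without KO replicate 2, KO replicate 3, WT replicate 1 and WT replicate 2. Of all genes, 7.10%, 7.64%, 11.3% and 9.41% were then apart in that direction. The cause of these changes was not tested. Without the filter on low counts 6 members were apart, as Pcna and Pole2 overlapped, against 4.33% of all genes. A fit with fewer samples makes such separation easier by its construction. Whether the replicate numbers pair the libraries is not known. Same-numbered libraries had correlations of -0.04, 0.21 and -0.23 in their deviations from the group means. Each such pair joined an Xist-high and a Y-linked library, so these correlations cannot decide it.

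Of the 20 named members, 18 kept their direction in every setting, but for 10 of the 20 the omission of one library moved the difference by over 1.5 times without turning it. Without WT replicate 1, Cdc45 stood at 0.044 against 0.23, Uhrf1 at 0.15 against 0.31 and Lig1 at 0.15 against 0.27. Without KO replicate 2, Ccne1 stood at 0.20 against 0.46, Mcm10 at 0.32 against 0.57, E2f1 at 0.33 against 0.51, Uhrf1 at 0.20 and Cdc45 at 0.13, and Cdc45 was also at 0.13 without KO replicate 3. Without KO replicate 1, Ccne1 stood at 0.79, Cdc45 at 0.40 and Rrm1 at 0.37 against 0.24, and without WT replicate 3, Cdc6 stood at 0.87 against 0.58 and Cdc45 at 0.40. Fen1 and Gins4 were the other 2. Fen1, at 0.11, was -0.039 with Xist status as a covariate and between -0.16 (without KO replicate 3) and 0.35 on leaving out libraries. Gins4, at -0.013, was 0.017 with total counts and between -0.097 and 0.086 on leaving out libraries, with values above 0 when KO replicate 1, WT replicate 2 or WT replicate 3 was omitted. Requiring a mean of 50 counts dropped Fen1 and left 46 members. Leaving out the 3 members overlapped over more than 50% of their exon bases gave a median of 0.27, and summing pseudogene copies gave 0.25. Both were added after the data were seen. Fen1, with 11 to 22 counts per library, is the member that depth limits most.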

Other observations

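Ratios of counts between partner genes, chosen after the values were seen, give a view within each library that does not depend on scaling. The ratio of Rrm2 to Rrm1, the small and large subunits of ribonucleotide reductase, was 0.316, 0.432 and 0.405 in the libraries labelled KO and 0.288, 0.285 and 0.314 in those labelled WT. Every library labelled KO was above every library labelled WT in this ratio, with KO replicate 1 and WT replicate 3 nearly level. The ratio of Cdt1, the helicase loader, to Gmnn, its inhibitor, was 2.29, 1.72 and 1.31 in KO and 1.66, 1.90 and 1.94 in WT, so KO replicates 1 and 3 were the extremes. The ratio of E2f2 to E2f1 was 3.20, 2.61 and 3.0 in KO and 3.59, 2.68 and 2.37 in WT, and the ratio of Ccne2 to Ccne1 was 0.853, 0.538 and 0.708 in KO and 0.738, 0.729 and 0.594 in WT. In both of these the groups overlapped. These are single values per library with no test.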
